A study of Mus musculus with 24 samples.

Results

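The mast cell protease and marker genes were followed across quadriceps muscle of 2 mouse strains. The list held 9 names: the tryptases Tpsb2 and Tpsab1, the chymases Cma1 and Mcpt4, the carboxypeptidase Cpa3, the receptor Kit, the histamine-forming enzyme Hdc and the IgE receptor subunits Fcer1a and Ms4a2. Of these, 7 were among the 14159 genes with a symbol in the deposited matrix, and all 7 are described here. Fcer1a and Ms4a2 were not analysed here. The members were chosen by the level of Tpsb2 in uninjured MRL against uninjured B6 muscle of these same libraries, so the uninjured strain values of all 7 genes are given as a description, with no test.

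Bulk RNA-seq was made from 24 whole, flash-frozen quadriceps in 8 groups of 3. The strains were C57BL/6, here B6, and MRL/MpJ, here MRL, and in each the muscle was uninjured or was injured and given saline, ECM or PE. The mice were females of 6 to 8 weeks. The injury, volumetric muscle loss, removed a 3 mm by 3 mm piece of the quadriceps. Saline was the vehicle control, ECM was decellularized matrix of small intestine submucosa and PE was polyethylene powder, a particulate plastic, and muscles were taken at day 21. Values are log2 CPM, CPM being a gene's reads scaled to a common library total, with a small constant added before the log so that a gene listed at 0 sits at -3.65. The library is the whole muscle, so fewer mast cells and less of a transcript per mast cell cannot be told apart in any result.

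Mast cells are long-lived tissue immune cells that mature in place and hold granules packed with proteases, histamine and proteoglycan. Connective tissue mast cells of the mouse are the kind found around vessels and between fibres in muscle. They are known for tryptases, chymases and carboxypeptidase A3, which are stored together on serglycin and released on activation, as through the IgE receptor. Their growth and survival depend on Kit, the receptor for stem cell factor.

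The matrix does not give read counts. Its smallest value corresponds to a mean effective library size of about 25149700 counts, at which 3 counts equal 0.119 CPM. MRL PE replicate 2 stood apart: its summed muscle fibre markers were at 23490 CPM, against 40185 to 152618 CPM in the other 23 libraries, and its macrophage markers at 1064 CPM, against 144 and 161 CPM in the other MRL PE libraries. The 5 stored proteases have low levels here, at most 11.2 CPM in any library. Basophil-specific genes could hardly be followed, since 2 of 5 listed markers were in the matrix. Skin epidermis markers summed to 8.71 to 38.5 CPM per library, and the summed mammary gland markers ran from 2.54 to 312 CPM; the part of such neighbouring tissue in the mast cell values was not tested.

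The tryptase genes are neighbours on chromosome 17 (GRCm39, GENCODE annotation), Tpsab1 at 25562212 to 25564541 on the minus strand and Tpsb2 at 25585170 to 25588079 on the plus strand. Their longest coding exon, the third, is 266 bases in both. It is printed to show how far reads from the neighbours can be told apart, with the 84 bases at which they differ in capitals. The exon lies at chr17:25586020-25586285 in Tpsb2 and chr17:25563625-25563890 in Tpsab1, and both are written 5′ to 3′ on the coding strand.
Tpsb2: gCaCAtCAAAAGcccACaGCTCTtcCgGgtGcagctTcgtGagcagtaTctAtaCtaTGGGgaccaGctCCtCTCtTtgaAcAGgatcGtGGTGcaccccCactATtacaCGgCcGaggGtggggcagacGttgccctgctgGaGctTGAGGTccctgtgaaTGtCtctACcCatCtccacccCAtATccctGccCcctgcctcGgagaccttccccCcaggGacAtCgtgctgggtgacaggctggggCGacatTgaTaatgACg
Tpsab1: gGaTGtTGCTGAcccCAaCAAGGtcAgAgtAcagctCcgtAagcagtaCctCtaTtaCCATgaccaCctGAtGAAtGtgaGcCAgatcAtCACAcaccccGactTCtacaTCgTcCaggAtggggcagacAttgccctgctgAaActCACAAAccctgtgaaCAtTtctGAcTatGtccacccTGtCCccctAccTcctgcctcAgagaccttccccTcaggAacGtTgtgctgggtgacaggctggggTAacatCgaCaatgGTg
The exons were 68.4% identical and the longest shared run was 21 bases. Over all annotated transcripts, the genes shared 9 stretches of 31 bases, of 2441 in Tpsb2 and 2316 in Tpsab1. RefSeq lists Tpsab1 as a transcribed pseudogene on the C57BL/6J reference, while GENCODE lists it as protein coding.

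Tpsb2, a tryptase stored in connective tissue mast cells, was read in every MRL library and was at or next to 0 in every B6 library. It was listed at 0 in 11 of 12 B6 libraries, and stood at 3.92e-05 CPM in B6 ECM replicate 2. In MRL muscle it was at 2.29, 2.05 and 0.68 log2 CPM in the uninjured libraries, 2.40, 2.23 and 1.86 with saline, 2.02, 1.59 and 1.60 with ECM, and 3.08, 2.82 and 2.52 with PE. The strains did not overlap in any treatment, and the 3 MRL PE libraries were the highest of all. No fold or test is given between the strains. A widely used gene, Atad1, is also listed at 0 in 1 library while it is at 4.67 log2 CPM or more in the other 23, so a listed 0 need not mean that a transcript was absent. Transcripts were assigned to genes through an older annotation (Ensembl version 79) than the transcript sequences, and the part of that step in the B6 zeros was not tested.

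Tpsab1, the second tryptase gene, was also higher in MRL, and in B6 it was under the level of 3 counts in 8 of 12 libraries. In B6 it was at 0.484, 0.057 and 0.513 CPM in uninjured muscle and at 0.0518, 0.0521 and 0.0298 CPM with saline. It stood at 0.0557, 0.186 and 0.054 CPM with ECM and at 0.0217, 0.140 and 0 CPM with PE. In MRL it was at 3.80, 2.43 and 1.01 CPM in uninjured muscle, 2.88, 3.52 and 1.56 CPM with saline, 2.45, 2.00 and 0.327 CPM with ECM, and 3.83, 5.09 and 2.24 CPM with PE. Within each treatment every MRL library was above every B6 library. No B6 library reached 1 CPM for either tryptase gene, so both entered the matrix, which required over 1 CPM in at least 3 libraries, through MRL alone. They had to differ, so their strain values are a description with no test, and counts between the strains below are of the other 5 genes.

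**Figure D1:**
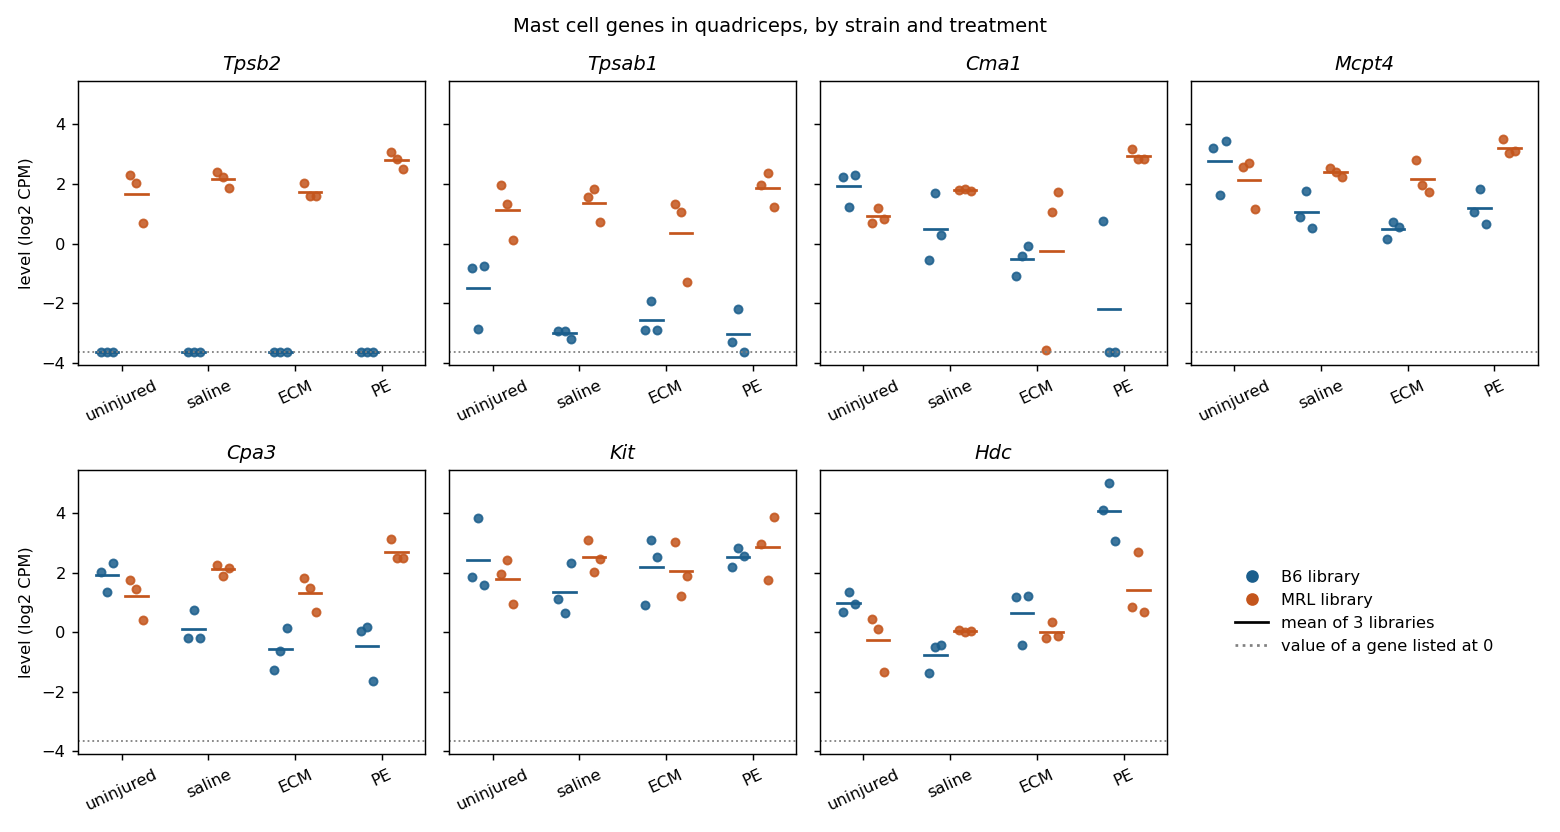
Level (log2 CPM) of each of the 7 genes in all 24 libraries, by treatment and strain; points are libraries, bars are means of 3 libraries and the dotted line marks a gene listed at 0. Tpsb2 and Tpsab1 are separated by strain in every treatment, and every injured B6 point of Cpa3 lies under every uninjured B6 point. In MRL the saline and PE points of Cpa3 lie above the uninjured points, and the ECM points overlap them.

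The remaining proteases are Mcpt4 and Cma1, chymotrypsin-like enzymes of the chymase locus, and Cpa3, a carboxypeptidase stored with them. Mcpt4 lies on chromosome 14 at 56297086 to 56299770 and Cma1 at 56178908 to 56182132, and Cpa3 on chromosome 3 at 20269774 to 20296362, all on the minus strand. Of the 1078 stretches of 31 bases in Mcpt4, 177 (16.4%) also occur in other genes, mostly of its own family, so its reads could be split with paralogs. Cma1 shared 112 of 1222 (9.17%) with 1 predicted gene, and Cpa3 shared 8 of 1615.

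In uninjured muscle these 3 genes were not higher in MRL. Mcpt4 was at 3.22, 1.62 and 3.45 log2 CPM in B6 and at 2.57, 2.69 and 1.14 in MRL. Cpa3 was at 2.04, 1.35 and 2.33 in B6 and at 1.75, 1.47 and 0.41 in MRL. Cma1 was at 2.25, 1.23 and 2.30 in B6 and at 0.69, 1.20 and 0.84 in MRL. The strains overlapped for Mcpt4 and Cpa3, and B6 was above MRL in all libraries for Cma1, by 0.03 between the nearest. The strain differences, MRL minus B6, were -0.63 ± 0.48, -0.70 ± 0.50 and -1.02 ± 1.10 log2 (SE) for Mcpt4, Cpa3 and Cma1. Of all genes, 2.6% were past the threshold in this contrast, which the choice of members used and from which nothing is read.

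With saline the MRL libraries lay above the B6 libraries in all 3 genes. Mcpt4 was at 0.90, 1.75 and 0.53 log2 CPM in B6 and at 2.54, 2.41 and 2.24 in MRL. Cpa3 was at -0.19, 0.74 and -0.21 in B6 and at 2.27, 1.89 and 2.16 in MRL. Cma1 was at -0.54, 1.70 and 0.29 in B6 and at 1.79, 1.84 and 1.76 in MRL. How many of all genes lay apart in this way was not counted, for saline, ECM or PE. Cpa3 was the 1 of 5 genes apart from the tryptases that passed with saline, higher in MRL by 1.99 ± 0.50 log2 (adjusted p = 0.0335, limma), where 2.51% of all genes passed and 1.07% were higher in MRL (4.33% passed without B6 saline replicate 2 and 1.62% without MRL saline replicate 3). The Mcpt4 difference was 1.33 ± 0.48 (adjusted p = 0.198) and that of Cma1 1.31 ± 1.10 (adjusted p = 0.664). The Cpa3 call was lost when any library of the comparison other than B6 saline replicate 2 was left out (adjusted p = 0.0819 to 0.149).

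With ECM, Mcpt4 was at 0.15, 0.73 and 0.55 log2 CPM in B6 and at 2.79, 1.95 and 1.72 in MRL, without overlap. Cpa3 was at -1.25, -0.62 and 0.15 in B6 and at 1.83, 1.48 and 0.68 in MRL, again without overlap. Cma1 was at -1.10, -0.42 and -0.08 in B6 and at -3.57, 1.06 and 1.74 in MRL, so MRL ECM replicate 1 lay under every B6 library for Cma1 although it was the highest of its group for Mcpt4 and Cpa3. Cpa3 was higher in MRL by 1.90 ± 0.50 (adjusted p = 0.043, limma, against 1.10 and adjusted p = 0.0508 on the log2(CPM + 1) scale), 1 of 5 genes apart from the tryptases, against 2.66% of all genes called and 1.27% called higher in MRL. The Mcpt4 difference was 1.68 ± 0.48 (adjusted p = 0.0735) and that of Cma1 0.28 ± 1.10 (adjusted p = 0.935). The Cpa3 call was lost without replicate 1 or 2 of either strain (adjusted p = 0.118 to 0.230).

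With PE the strains were farthest apart in all 3 genes. Mcpt4 was at 1.07, 1.84 and 0.65 log2 CPM in B6 and at 3.50, 3.06 and 3.11 in MRL. Cpa3 was at 0.05, 0.19 and -1.64 in B6 and at 3.14, 2.49 and 2.48 in MRL. Cma1 was at 0.75 in B6 PE replicate 1 and at or next to 0 in replicates 2 and 3, and at 3.17, 2.84 and 2.84 in MRL. The strains did not overlap for any of the 3. All 3 passed, higher in MRL by 2.03 ± 0.48 for Mcpt4 (adjusted p = 0.0207, limma), 3.17 ± 0.50 for Cpa3 (adjusted p = 0.000438) and 5.14 ± 1.10 for Cma1 (adjusted p = 0.0102). The size of the Cma1 difference was set largely by the added constant, since 2 of 3 B6 libraries lay at or next to 0: on the log2(CPM + 1) scale it was 2.65, still past the threshold. Apart from the tryptases, 4 of 5 genes passed with PE, 3 higher in MRL and Hdc lower, where 3.35% of all genes passed, 1.6% higher and 1.74% lower. Without MRL PE replicate 2, the library that stood apart, 24.6% of all genes passed and the calls of these genes held. Without MRL PE replicate 1 it was 1.65%.

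The Cpa3 difference with PE held without any 1 library (adjusted p at most 0.00517). That of Mcpt4 was lost without replicate 1 or 3 of either strain (adjusted p = 0.0601 to 0.108), and that of Cma1 without B6 PE replicate 2 or 3 or MRL PE replicate 1 (adjusted p = 0.0504 to 0.0684), with Cma1 differences of 4.40 to 6.60 over the 6 libraries left out. In this comparison the replicates 2 of both strains deviated together, as did the replicates 3 (residual correlations of 0.532 and 0.439). For replicate 1 the correlation was 0.105. With the replicate number as a block the same 4 of 5 genes passed, while the count over all genes went from 474 to 1136.

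**Figure D2:**
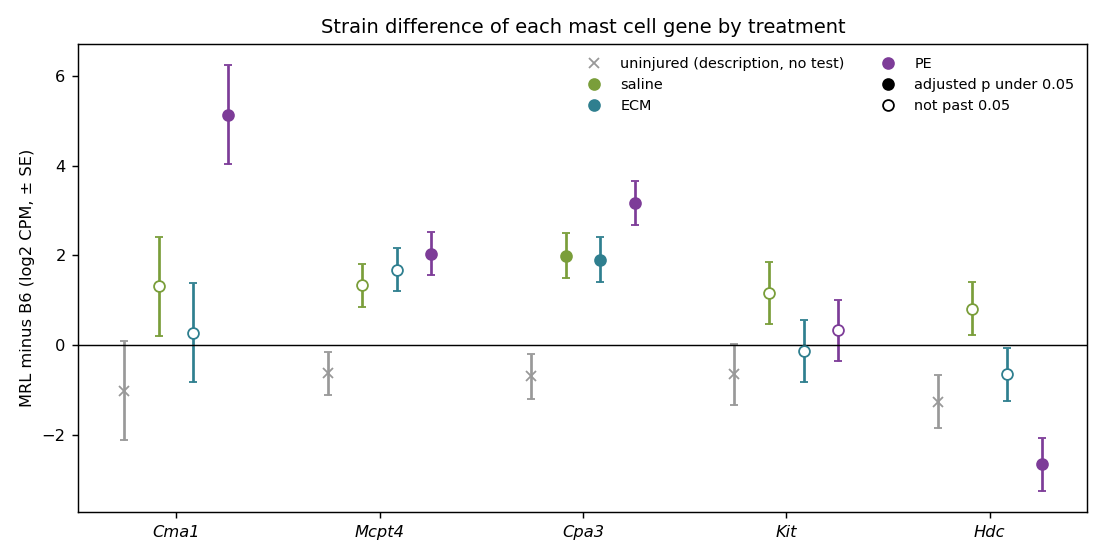
MRL minus B6 difference (log2 CPM, ± SE from limma, 3 libraries per group) of 5 genes in each treatment; filled circles passed an adjusted p of 0.05, open circles did not, and crosses for uninjured muscle are a description with no test. Mcpt4 and Cpa3 lie under 0 in uninjured muscle and above 0 in every injured group, and Hdc lies at -2.65 with PE.

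Averaged over the 3 injured groups, with 9 libraries per strain, 3 proteases passed. Mcpt4 was higher in MRL by 1.68 ± 0.28 log2 (adjusted p = 0.000296, limma), Cpa3 by 2.36 ± 0.29 (adjusted p = 7.92e-06) and Cma1 by 2.24 ± 0.63 (adjusted p = 0.0238). On the log2(CPM + 1) scale the Cpa3 and Cma1 differences were 1.53 and 1.34, both past the threshold. The calls of Mcpt4 and Cpa3 held without any 1 of the 18 libraries, while that of Cma1 was lost without B6 PE replicate 2 (adjusted p = 0.0524) or MRL ECM replicate 2 (adjusted p = 0.0563). These were 3 of 5 genes apart from the tryptases, against 14.5% of all genes called and 7.03% called higher in MRL. The share of all genes was 34.1% without MRL PE replicate 2 and 9.57% without MRL ECM replicate 1. In an exact 2-sided permutation test of strain within treatment, over 8000 arrangements, Mcpt4 and Cpa3 both gave p = 0.00025, the smallest that this test can give, and Cma1 gave p = 0.0278. The single treatments, 3 libraries against 3, cannot go under p = 0.10 in an exact permutation test.

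Against uninjured muscle, proteases fell in B6 with PE and with ECM. With PE, Cpa3 fell by 2.37 ± 0.50 log2 (adjusted p = 0.0048, limma), Mcpt4 fell by 1.58 ± 0.48 (adjusted p = 0.0253) and Cma1 fell by 4.11 ± 1.10 (adjusted p = 0.015). On the log2(CPM + 1) scale, which the added constant affects less at 0, the values were -1.46 for Cpa3 and -1.79 for Cma1, both past the threshold. With ECM, Cpa3 fell by 2.48 ± 0.50 (adjusted p = 0.0366, and -1.53 on the log2(CPM + 1) scale) and Mcpt4 fell by 2.29 ± 0.48 (adjusted p = 0.0438), and the Cma1 value was -2.46 ± 1.10 (adjusted p = 0.275). With saline the values were -1.79 ± 0.50 for Cpa3, -1.70 ± 0.48 for Mcpt4 and -1.44 ± 1.10 for Cma1, and 0 of 7 genes passed in the limma fit, where 0 of 14159 genes passed. At an unadjusted p under 0.05 there were 4 of 7 genes and 12.4% of all genes. Of all genes, 24.8% passed with PE, 10.0% lower and 14.7% higher, and 0.424% with ECM, 0.226% lower. The share with PE was 3.76% without B6 PE replicate 2, and that with ECM was at most 0.141% when any 1 library was left out. All 3 comparisons share the uninjured B6 libraries, in which replicate 2 was the lowest for Mcpt4, Cpa3, Cma1 and Tpsab1.

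Markers of other cells moved in both directions in the same B6 groups. The 4 endothelial markers summed to 323 to 382 CPM in uninjured B6, 227 to 279 CPM with saline, 176 to 240 CPM with ECM and 158 to 218 CPM with PE, and all 4 (Cdh5, Kdr, Pecam1 and Tek) fell with PE. The 6 adipocyte markers summed to 883 to 3853 CPM in uninjured B6, 322 to 669 CPM with saline, 171 to 1938 CPM with ECM and 170 to 356 CPM with PE, and 2 of them (Cidec and Fabp4) fell with PE. With ECM the adipocyte sum overlapped that of uninjured B6. The muscle fibre sum was 110511 to 135141 CPM in uninjured B6 and 40185 to 84384 CPM with PE. Fibroblast markers summed to 980 to 1430 CPM in uninjured B6 and 4133 to 7515 CPM with PE. The macrophage sum was 77.6 to 106 CPM and 451 to 1407 CPM in these groups. In MRL the endothelial sum was 200 to 317 CPM in uninjured muscle and 185 to 370 CPM with PE. The part of these tissues in the protease values was not tested.

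These falls rested on few libraries. With ECM, the Cpa3 call was lost when any 1 of the 6 libraries was left out (adjusted p = 0.0511 to 0.155), and the Mcpt4 call in all cases but the one without B6 uninjured replicate 2 (adjusted p = 0.0891 to 0.177). With PE, the Cpa3 call held without any 1 library, the Mcpt4 call was lost without replicate 1 or 3 of either group (adjusted p = 0.0644 to 0.110) and the Cma1 call without B6 PE replicate 2 (adjusted p = 0.0988). Without B6 saline replicate 2, Cpa3 and Mcpt4 passed with saline as well (adjusted p = 0.0421 and 0.0378), along with 3.22% of all genes. With the 3 injured B6 groups pooled, a contrast chosen after the data were seen, Cpa3 fell by 2.21 ± 0.40 (adjusted p = 0.0131, limma) and Mcpt4 fell by 1.86 ± 0.39 (adjusted p = 0.0188), with 5.38% of all genes called and 1.85% lower. The share of all genes was 0.0777% without B6 uninjured replicate 1 and 15.3% without B6 saline replicate 2. Every one of the 9 injured B6 libraries was under every uninjured B6 library for Cpa3. Both calls were lost without B6 uninjured replicate 1 or 3 (adjusted p = 0.063 to 0.107).

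In MRL no member passed against uninjured muscle. With PE, Cpa3 was at a value of 1.49 ± 0.50 log2 (adjusted p = 0.0558, limma) and Mcpt4 at 1.09 ± 0.48 (adjusted p = 0.112), where 9.73% of all genes passed. The Tpsb2 value was 1.13, a description with no test, since its level in the uninjured libraries was used to choose the members. With ECM 0.0141% of all genes passed, and with saline 0 of 14159. At an unadjusted p under 0.05 there were 4 of 7 members, Tpsb2 among them, and 36.1% of all genes with PE, 0 and 3.80% with ECM, and 0 and 3.10% with saline. Without MRL PE replicate 3, Cpa3 passed (adjusted p = 0.0476), along with 24.2% of all genes. The test of whether the responses differed between strains did not pass for any member with all libraries in the fit: for PE against uninjured muscle the Cpa3 responses differed by 3.86 ± 0.70 (adjusted p = 0.0712), those of Mcpt4 by 2.66 ± 0.68 (adjusted p = 0.277) and those of Cma1 by 6.15 ± 1.55 (adjusted p = 0.277), where 0.0212% of all genes passed. Without MRL PE replicate 2 all 3 passed (adjusted p = 0.00331 for Cpa3, 0.0226 for Mcpt4 and 0.0254 for Cma1), along with 9.56% of all genes, and without MRL uninjured replicate 1 Cpa3 passed (adjusted p = 0.0391). For PE against saline, the Hdc responses differed by -3.46 (adjusted p = 0.988), and without MRL PE replicate 2 this passed (adjusted p = 0.00381). No member passed between ECM and saline in either strain, where 0.0283% of all genes passed in B6 and 0.00706% in MRL. At an unadjusted p under 0.05 there was 1 member in B6 and 3.99% of all genes, and 0 members in MRL and 3.55% of all genes.

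Mcpt4 and Cpa3 varied together from library to library. As a description over the 12 libraries of each strain, Pearson's r between Mcpt4 and Cpa3 was 0.90 in B6 and 0.90 in MRL, and after each group's mean was removed it was 0.74 and 0.89. In MRL, r between Tpsb2 and Mcpt4 was 0.95 and between Tpsb2 and Cpa3 0.91. By Pearson's r, Cma1 followed less closely, with r of 0.20 to Mcpt4 in MRL, where MRL ECM replicate 1 was low in Cma1 alone (Spearman's rho 0.48). To Cpa3 its r was 0.35 in MRL (rho 0.78) and 0.76 in B6, and to Mcpt4 in B6 it was 0.53. With the group means removed, r of Cma1 in MRL was -0.49 to Mcpt4, -0.44 to Cpa3, -0.50 to Tpsab1 and -0.22 to Tpsb2. In B6 the same values were 0.26 to Mcpt4, 0.56 to Cpa3 and 0.05 to Tpsab1. GENCODE holds a pair of Cma1 transcripts, Cma1-201 and Cma1-202, with an identical sequence of 1090 bases, and the part of read assignment in the low Cma1 libraries was not tested. These libraries share the tissue and the normalization.

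**Figure D3:**
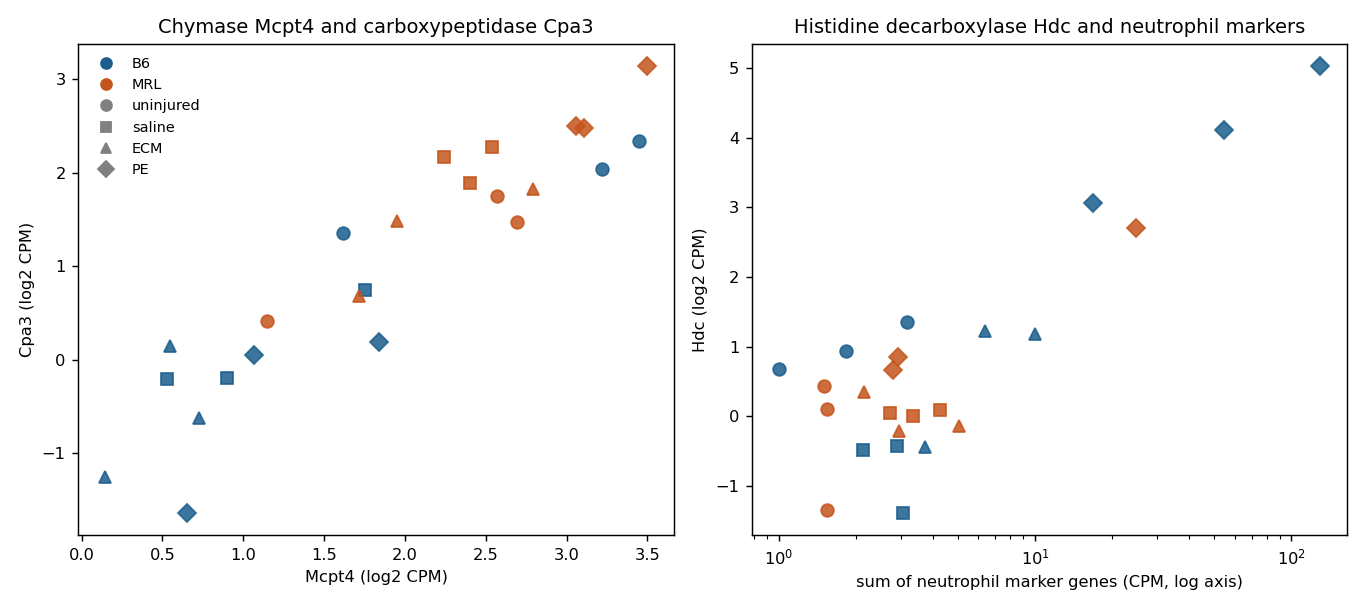
Left, Cpa3 against Mcpt4 (both log2 CPM) in 24 libraries; right, Hdc (log2 CPM) against the summed CPM of 5 neutrophil marker genes on a log axis; colour is strain and shape is treatment. Cpa3 and Mcpt4 lie along 1 band with injured B6 muscle at its low end and MRL PE at its high end, and the 4 libraries with the highest Hdc are the 4 with the highest neutrophil sum.

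The sequence upstream of Mcpt4, Cpa3 and Cma1 is printed to show where the motif GATAA, the core bound by GATA factors such as the mast cell regulator Gata2, occurs. Promoter sequences were those of RefSeq on GRCm38.p6, matched by symbol for 7 of the 9 names, the tryptases being the exceptions. Each line holds the 250 bases before the annotated start, 5′ to 3′ on the gene's strand (minus in all 3), with GATAA or its reverse complement TTATC in capitals: chr14:56062311-56062560 for Mcpt4, chr3:20242182-20242431 for Cpa3 and chr14:55944676-55944925 for Cma1.
Mcpt4: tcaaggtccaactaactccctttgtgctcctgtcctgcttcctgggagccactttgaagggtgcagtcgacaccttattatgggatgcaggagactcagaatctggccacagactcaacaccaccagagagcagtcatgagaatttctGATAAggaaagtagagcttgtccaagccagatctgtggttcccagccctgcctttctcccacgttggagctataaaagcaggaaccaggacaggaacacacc
Cpa3: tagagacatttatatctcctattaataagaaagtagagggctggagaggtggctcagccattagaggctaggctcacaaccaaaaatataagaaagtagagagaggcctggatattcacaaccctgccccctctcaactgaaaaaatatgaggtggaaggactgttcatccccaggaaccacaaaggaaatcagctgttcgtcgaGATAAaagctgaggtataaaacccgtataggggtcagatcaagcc
Cma1: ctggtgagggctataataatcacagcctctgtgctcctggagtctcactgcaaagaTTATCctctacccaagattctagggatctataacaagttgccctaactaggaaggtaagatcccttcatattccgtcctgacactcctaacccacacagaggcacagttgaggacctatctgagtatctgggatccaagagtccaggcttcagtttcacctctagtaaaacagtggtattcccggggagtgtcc
Each held 1 match, starting 102, 45 and 194 bases before the start in Mcpt4, Cpa3 and Cma1. The motif was found on either strand in 22.6% of 32851 promoter windows of the same length. Of the other matched names, Fcer1a held 1 match and Ms4a2 held 3, neither of which has an expression value here, and Kit and Hdc held none. A match is a description of the letters and not a bound site.

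Kit, the stem cell factor receptor (chromosome 5, 75735576 to 75817404), did not follow Mcpt4 and Cpa3 with ECM or PE, between the strains or within B6. It was at 1.85, 3.85 and 1.58 log2 CPM in uninjured B6, 1.10, 0.64 and 2.33 with saline, 0.92, 3.09 and 2.51 with ECM, and 2.20, 2.83 and 2.56 with PE. In MRL it was at 1.94, 2.43 and 0.95 in uninjured muscle, 3.09, 2.01 and 2.47 with saline, 3.02, 1.23 and 1.90 with ECM, and 2.97, 1.75 and 3.86 with PE. The strains overlapped in every treatment. The strain difference over the injured groups was 0.45 ± 0.40 log2 (adjusted p = 0.438, limma), and in B6 with PE against uninjured muscle the value was 0.10 ± 0.68 (adjusted p = 0.92). With saline Kit lay in the direction of the proteases without passing. The values were 1.17 ± 0.68 between the strains (adjusted p = 0.491, limma) and -1.07 ± 0.68 in B6 against uninjured muscle (adjusted p = 0.518). Within B6, r between Kit and Mcpt4 was -0.09, and B6 uninjured replicate 2 had the highest Kit of its strain and the lowest Mcpt4 of its group. Within MRL, r of Kit was 0.71 to Mcpt4 (0.64 with the group means removed), 0.66 to Cpa3 and 0.62 to Tpsb2. To Tpsab1 and Cma1 in MRL it was 0.26 and 0.03.

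Hdc, the enzyme that makes histamine from histidine and which neutrophils and macrophages can also express, moved with PE in B6 in the opposite direction to the proteases. In B6 it was at 0.68, 1.35 and 0.94 log2 CPM in uninjured muscle, -1.38, -0.49 and -0.42 with saline, 1.19, -0.44 and 1.22 with ECM, and 4.11, 5.02 and 3.06 with PE. In MRL it was at 0.43, 0.11 and -1.34 in uninjured muscle, 0.09, 0.01 and 0.05 with saline, -0.20, 0.35 and -0.13 with ECM, and 0.86, 2.70 and 0.67 with PE. The B6 PE libraries were the 3 highest of all 24. Hdc (chromosome 2, 126435558 to 126461318) rose in B6 with PE by 3.07 ± 0.59 against uninjured muscle (adjusted p = 0.00322, limma) and by 4.83 ± 0.59 against saline (adjusted p = 0.00139), where 5.97% of all genes passed and 5.37% rose (0.0141% passed without B6 PE replicate 2, Hdc among them). Against PE, ECM was lower in B6 by -3.41 ± 0.59 (adjusted p = 0.037, 0.226% of all genes called and 0.198% lower), and this call was lost unless the library left out was B6 PE replicate 3 (adjusted p = 0.0509 to 0.386).

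The MRL PE group was lower than the B6 PE group in Hdc, with a difference of -2.65 ± 0.59 (adjusted p = 0.0139, limma), lost without B6 PE replicate 1 or 2 or MRL PE replicate 1 or 3 (adjusted p = 0.0599 to 0.0982). In MRL against uninjured muscle the PE value was 1.68 ± 0.59 (adjusted p = 0.064) and passed without MRL PE replicate 1 or 3 (adjusted p = 0.0453 and 0.0328). Over the injured groups the strain difference was -0.83 ± 0.34 (adjusted p = 0.105, exact permutation p = 0.128), and without MRL PE replicate 2 the adjusted p was 0.0161. Neutrophil markers moved with Hdc. Their sum, over 5 of 7 listed genes, was 16.8 to 130 CPM in B6 PE and 24.7 CPM in MRL PE replicate 2, and 1.00 to 9.96 CPM in the other 20 libraries. The 4 libraries with the highest neutrophil sum were the 4 with the highest Hdc, which was at 2.70 log2 CPM or more in them and at 1.35 or less elsewhere. Macrophage markers summed to 451 to 1407 CPM in B6 PE, against 77.6 to 106 CPM in uninjured B6, and the part of these cells in the Hdc values was not tested. In B6, r between Hdc and Mcpt4 was 0.05, and in MRL it was 0.69.

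Other genes of mast cell biology came from 6 lists of 50 genes, of which 37 were in the matrix. The lists cover other mast cell proteases (0 of 7 in the matrix), granule and amine handling, IgE receptor signalling, eicosanoid enzymes, growth and regulation, and surface receptors. Between strains, 0 of 37 passed with saline in the limma fit, 1 with ECM, 3 with PE (1 higher and 2 lower in MRL) and 5 over the injured groups (2 higher and 3 lower). Mrgprb1, which entered the matrix through MRL, is the 1 gene with ECM, the 1 higher with PE and 1 of the 2 higher over the injured groups. Its entry favoured these calls, so nothing is read from them. Apart from Mrgprb1, no listed gene passed with ECM and no listed gene was higher in MRL with PE. The shares of all genes were 2.51%, 2.66%, 3.35% and 14.5%, so 5 of 37 was close to the background. The median differences of the 37 were -0.05, -0.49, -0.94 and -0.52, and those of all genes were between -0.02 and 0.01.

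Mrgprb1 is on the list of mast cell surface receptors. With ECM it was at 0.127, 0.133 and 0.0722 CPM in B6 and at 3.72, 0.788 and 0.528 CPM in MRL. With PE it was at 0.289, 0.554 and 0.154 CPM in B6 and at 2.23, 3.17 and 1.37 CPM in MRL. The strains did not overlap in either treatment. Mrgprb1 was over 1 CPM in 1 of 12 B6 and 8 of 12 MRL libraries, so it too entered the matrix through MRL, and the B6 ECM values lie near the level of 3 counts. Its calls with ECM, with PE and over the injured groups are in the counts above but are not read as a result, and its values are a description. Hnmt, the enzyme that methylates histamine, was higher in MRL over the injured groups by 0.65 (adjusted p = 0.0423), while the IgE receptor gamma chain Fcer1g, which macrophages and neutrophils also use, was lower by -1.60 (adjusted p = 0.0232). The others lower in MRL were Csf2rb2, a cytokine receptor chain (-3.46 with PE and -2.43 over the injured groups), Ptgs2, the inducible prostaglandin synthase (-3.06 with PE), and Vav1, a signalling adaptor (-1.48 over the injured groups).

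In B6 with PE against uninjured muscle, 22 of the 37 genes rose and 2 fell, with a median of 2.03 against 0.02 for all genes and 24.8% of all genes called. Of the 13 genes of IgE receptor signalling, 11 rose, among them Fcer1g by 4.71 (adjusted p = 0.0018, limma) and Vav1 by 4.42 (adjusted p = 0.00288). These kinases and adaptors serve receptors of most blood-derived immune cells, and 5 of 6 macrophage markers and 5 of 5 neutrophil markers rose in the same comparison. Kitl, which encodes stem cell factor, fell by 0.77 (adjusted p = 0.0452) and Gata2 fell by 1.12 (adjusted p = 0.0108). The stored proteases Mcpt4, Cpa3 and Cma1 fell in the same libraries. In MRL with PE against uninjured muscle, 4 of the 37 genes rose and 0 fell, where 9.73% of all genes passed: Il1rl1, the interleukin-33 receptor (1.81), Lcp2, Lyn and Milr1. Without MRL PE replicate 2, 1 gene of 14159 passed, and without MRL uninjured replicate 1, 0 passed. The 13 IgE signalling genes summed to 138, 152 and 835 CPM in the MRL PE libraries, in ascending order, so 1 library stood far above the others.

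Over all 24 libraries, the genes whose pattern was most like the mean of the 7 members, each scaled to unit variance, were Ttc30b (r = 0.89), H2-Q1 (r = 0.83), Pcolce2 (r = 0.82), Mal2 (r = 0.81), Rbp7 (r = 0.80), Lyplal1 (r = 0.80), Ceacam2 (r = 0.80) and Slc6a4 (r = 0.80). The mean carries the strain difference of the tryptases, so these correlations are a description only. Slc6a4, the serotonin transporter, was at 0.405, 0.837 and 0.444 CPM in B6 PE and at 1.64, 2.61 and 0.876 CPM in MRL PE, without overlap. It was over 1 CPM in 0 of 12 B6 and 4 of 12 MRL libraries, so it entered the matrix through MRL, and its strain values are a description with no test.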

How the data were processed

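Per the submitters' methods, poly(A)-selected libraries from 24 quadriceps were pseudoaligned with kallisto to GRCm39 transcripts and summed to genes through the Ensembl version 79 annotation; genes over 1 CPM in at least 3 libraries were kept and normalized by TMM. The authors deposited the result as log2 CPM values. Of 14160 rows, 1 without a symbol was left out, and 0 columns of samples were unused. Read counts were not used here. CPM were recovered by removing the added constant of 0.0795 CPM, read from the minimum that all libraries share.

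Groups came from the labels, and nothing says whether same-numbered libraries share a batch. All 24 libraries entered 1 limma fit (limma 3.58.1, R 4.3.3, trend and 8 group means) over 14159 genes, with Benjamini-Hochberg adjusted p over all of them and a threshold of 0.05. Exact permutation tests used Python 3.11.15. Differences are on the log2 scale with the constant included, which understates low genes. The fit was tested on simulated data. Same-numbered B6 and MRL libraries had residual correlations of 0.105, 0.532 and 0.439 with PE, and 0.202, 0.376 and 0.0468 in uninjured muscle. The replicate block is therefore given beside the main fit with PE, and the main fit does not pair libraries.

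The members and lists were chosen with earlier results of these data known. Named were all members present, listed genes past the threshold that the text needs, and the 8 named genes most like the members. Alternatives were another pseudocount, a filter, library weights, fewer libraries, quantile normalization, a replicate block and leaving out each library. The labels number the replicates without naming animals, so p-values measure the spread between these samples.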

Additional observations from a re-analysis of the deposited data

Results flagged for a closer look

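In several comparisons the 3 libraries of B6 all moved one way from their own reference mean while the 3 of MRL all moved the other way. Each is given as the MRL response minus the B6 response in log2 CPM. Its limma SE and the adjusted p of that difference over all genes follow, except for Tpsab1. None passed with all libraries in the fit. Without MRL PE replicate 2 the differences of Cpa3, Mcpt4 and Cma1 with PE passed (adjusted p = 0.00331, 0.0226 and 0.0254), and without MRL uninjured replicate 1 that of Cpa3 (adjusted p = 0.0391). Tpsab1 entered the matrix through MRL alone and was under the level of 3 counts in most B6 libraries, so its differences are a description with no test. With groups of 3, outlying single libraries were not tested. MRL uninjured replicate 3 was the lowest of its group for Mcpt4, Cpa3, Kit and Hdc, which lowers the reference mean. For Hdc, uninjured MRL at 0.43 and 0.11 log2 CPM lay above MRL saline at 0.09, 0.01 and 0.05. For Mcpt4, 2.57 and 2.69 lay above 2.54, 2.41 and 2.24. For Cpa3 and Cma1 every MRL saline library was above every uninjured one. How many of all genes moved in opposite ways was not counted.

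With PE against uninjured muscle, the responses differed for Cma1 by 6.15 ± 1.55 (adjusted p = 0.277), Mcpt4 by 2.66 ± 0.68 (adjusted p = 0.277), Cpa3 by 3.86 ± 0.70 (adjusted p = 0.0712) and Tpsab1 by 2.27 (no test). The values were lower in B6 and higher in MRL than the reference. With ECM against saline, the responses differed for Tpsab1 by -1.46 (no test). The values were higher in B6 and lower in MRL than the reference. With saline against uninjured muscle, the responses differed for Cma1 by 2.33 ± 1.55 (adjusted p = 1.00), Mcpt4 by 1.96 ± 0.68 (adjusted p = 1.00), Cpa3 by 2.69 ± 0.70 (adjusted p = 1.00), Kit by 1.82 ± 0.97 (adjusted p = 1.00) and Hdc by 2.07 ± 0.83 (adjusted p = 1.00). The values were lower in B6 and higher in MRL than the reference.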

How the results depend on the processing

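Over 43 differences of members, 430 of 524 alternatives kept direction and call, 62 lost the call, 20 gained it and 12 turned the direction, all 12 of differences past the threshold in neither. These were Cma1 between strains with ECM (-0.72 to 1.93 with 1 library left out), Kit between strains with ECM (-0.75 to 0.33 with 1 left out, and 0.028 under quantile normalization) and with PE (-0.17 to 0.88), and Kit in B6 with PE against uninjured (-0.32 to 0.82 with 1 left out, and -0.25 under quantile normalization). Counts below are of all 7 members, with the tryptases, which had to differ between strains. The uninjured contrast was used to choose the members, so nothing is read from its counts. Called members moved by over 1.5 times as follows. The filter at a mean log2 CPM of 1 left 3 of the 7 members (Mcpt4, Cpa3 and Kit) and so gave counts of 0 (uninjured strain difference), 1 (saline), 0 (ECM), 2 (PE) and 2 (injured groups), and, in B6, 0 for ECM against uninjured, 2 for PE against uninjured, 0 for PE against saline and 0 for ECM against PE. The larger pseudocount gave 1 between strains with ECM and 3 for MRL PE against uninjured. Fitting the compared groups alone gave 1 between strains with ECM, 2 with PE and 0 for B6 ECM against PE. Library weights gave 2 for the uninjured strain difference, 3 for B6 saline and 2 for MRL PE against uninjured, 1 for MRL ECM against PE and 1 for the strain difference in PE against saline. The weights also moved the counts over all genes, from 368 to 878 for the uninjured strain difference and from 0 to 1076 for B6 saline against uninjured. Quantile normalization gave 2 for the uninjured strain difference. The replicate block gave 1 for B6 ECM and 3 for MRL PE against uninjured, and 0 for B6 ECM against PE. It left the counts between strains unchanged at 3 with saline and 6 with PE. It also ended the Cpa3 call between strains with ECM. Pooling the 3 injured groups, chosen after seeing the data, gave 2 for B6 against uninjured. Except where shown, the cause was not tested.

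With 1 library left out, the counts ran from 1 to 2 (uninjured), 2 to 3 (saline), 1 to 3 (ECM), 3 to 6 (PE) and 4 to 6 (injured) between strains; in B6 from 0 to 2 (saline), 0 to 1 (ECM) and 3 to 5 (PE) against uninjured and 0 to 1 for ECM against PE; in MRL from 0 to 3 for PE against uninjured; and from 0 to 1 for the strain difference in PE against saline. The shares of all genes moved too. Between strains they ran from 1.58% to 2.01% (uninjured), 1.62% to 4.33% (saline), 1.79% to 2.66% (ECM), 1.65% to 24.6% (PE) and 9.57% to 34.1% (injured). In B6 they ran from 0% to 3.22% (saline), 0.0636% to 0.141% (ECM) and 3.76% to 24.3% (PE). For B6 ECM against PE they ran from 0.00706% to 0.374%. In MRL with PE they ran from 0% to 24.2%, and for the strain difference in PE against saline from 0% to 4.41%. A left-out library leaves 2 in its group. Low levels limit all of these genes, since 3 counts equal 0.119 CPM.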
